A study of Mus musculus with 119 samples.

Results

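The potassium channel genes other than the Kv3 group were taken by name. Of 55291 genes in both count tables, 92 have a symbol made of Kcn, further letters and a closing number. The Kv3 genes and Kcnj13, 5 genes in all, were left out, and of the remaining 87 genes the 68 with a mean of at least 1 CPM (library counts scaled to a common total) over the 119 libraries were kept. Kcnmb2 (1.88 CPM), Kcnu1 (2.37 CPM) and Kcnj5 (2.41 CPM) lay just inside this limit, and Kcnh8 (0.939 CPM), Kcnmb1 (0.842 CPM) and Kcne4 (0.759 CPM) were the nearest of the 19 genes outside it. No Kcne gene, the family of small single-pass accessory subunits, reached the limit.

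Potassium channels carry the current that returns a neuron to rest. Voltage-gated members end the action potential and space the next one, inward rectifiers and leak channels hold the resting potential, and calcium- or sodium-activated members couple potassium flow to earlier activity. Auxiliary subunits and electrically silent subunits form no working channel alone and change how the pore-forming subunits open or reach the membrane.

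The libraries are bulk RNA-seq from punches of 5 brain regions of C57BL/6J mice, aged 11 weeks. Strain and age are those of the labels, and the publication names another C57BL/6 substrain and a later week of brain collection. Mice of both sexes received THC, the main psychoactive compound of cannabis, at 10 mg/kg, or its vehicle of ethanol, tween and saline, in 21 daily injections from postnatal day 28 to 48. Behaviour was tested from postnatal day 63 and the brains were then collected. The regions are the dorsal striatum (DMS; dorsomedial in the group names, dorsolateral in the tissue labels), the ventral tegmental area (VTA), the amygdala (Amy), the nucleus accumbens (NAc) and the prefrontal cortex (PFC). With 2 sexes and 2 treatments per region there are 20 groups of 6 libraries, except 5 in Male_VTA_Veh, so 59 vehicle and 60 THC libraries. All mice were injected, so no group shows the untreated state, and the labels give no genotype.

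Total expected counts ran from 3090998 to 77042133 per library. They were even in the PFC and DMS (17826631 to 25470245) and uneven in the other regions. The lowest total belongs to Male_VTA_Veh library FTL_371 and the highest to a Male_VTA_THC library. The PFC and DMS libraries, 48 in all, are in one count table and the other 71 in a second, so that table and region cannot be told apart in contrasts that cross the tables. The labels carry no mouse identity, so regions of the same mouse were not paired. Whether the order of the libraries follows the mice was not tested. The publication describes 120 punches from the brains of 24 mice. Punches of one mouse therefore enter the regional fit as if they were independent, and its SE and p values do not take this into account.

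Some libraries went against their labels or stood apart. Female_Amy_THC library FTL_344 had 0.293 CPM of Xist, the female X-inactivation RNA, and 61.8 CPM of the Y-linked gene Ddx3y. Male_Amy_THC library FTL_356 had 488 CPM of Xist and 0 CPM of Ddx3y. Both are described throughout as the library labelled so, and they carry the opposite sex pattern. Female_Amy_Veh library FTL_338 had the lowest summed level of the 68 genes in its group, 3172 CPM, against 3893 CPM or more in the other 5, and 1124 CPM of choroid plexus and ependymal markers. Female_DMS_Veh library FTL_285 had 258 CPM of cortical projection neuron markers, against 5.32 to 6.90 CPM in the other 5. Male_NAc_Veh libraries FTL_324 and FTL_325 had 103 and 56.2 CPM of the same list, and Female_NAc_THC libraries FTL_320, FTL_315 and FTL_316 had 134, 81.7 and 74.2 CPM. Choroid plexus and ependymal markers reached 3441 and 2149 CPM in Female_Amy_THC libraries FTL_343 and FTL_344, and medium spiny neuron markers 1628 CPM in Male_Amy_THC library FTL_352. In Male_DMS_Veh library FTL_301 the medium spiny neuron markers summed to 4298 CPM, against 5459 to 6836 CPM in the rest of its group. Female_PFC_Veh library FTL_264 had 397 CPM of them, against 127 to 183 CPM in the rest of its group. These are examples, and other libraries also varied in such sums, above all in the NAc, Amy and VTA.

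The region labels were checked against marker genes. In vehicle libraries all 5 cortical projection neuron markers were called higher in the PFC, all 6 medium spiny neuron markers in the DMS and in the NAc, and all 5 dopaminergic markers in the VTA. In the Amy, 4 of 5 cortical markers and 3 of 5 markers of hypothalamus and medial amygdala were called higher. The VTA also had 5 of 5 oligodendrocyte markers called higher.

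The 68 genes fall into 14 families. Summed over members, the mean level was highest in the Kv7 family, at 784 CPM (4 genes). It was 595 CPM in the Kir inward rectifiers (12 genes), 584 CPM in the Kv beta subunits (3), 517 CPM in the Kv1 family (6) and 236 CPM in the Kv2 family (2). The KChIP subunits had 357.8 CPM (4 genes), the EAG family 352.7 CPM (7), the 2-pore domain leak channels 309.1 CPM (9), the silent Kv subunits 265.6 CPM (9), the Kv4 family 253 CPM (3), the BK channel and its beta subunits 236 CPM (3), the sodium-activated Slo2 channels 191 CPM (2), the SK channels 89.3 CPM (3) and Slo3 2.37 CPM (1). Per kilobase of exon, the scale for comparing genes, Kcnab2 led with 63.8 CPM per kb, followed by Kcnj4 (58.3 CPM per kb) and Kcnip2 (49.8 CPM per kb).

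The first question was how these genes differ between regions in vehicle-treated mice. Each region was set against the mean of the other 4, taken on the log scale, in a single edgeR fit with sex as a term. A gene was called at an adjusted p under 0.05 with a log2 fold change of at least 1 in that direction. A region with a very low level thus raises the values of the other 4. The PFC and the VTA stood at opposite ends. The PFC had 25 members called higher and 4 called lower, against 6.76% and 8.94% of all genes tested. The VTA had 10 called higher and 23 called lower, against 10.9% and 9.07% of all genes. Members were thus called higher in the PFC (36.8%) and lower in the VTA (33.8%) at several times the rate of all genes. The DMS was split, with 13 higher (19.1%) and 18 lower (26.5%), against 6.48% and 8.86% of all genes. The NAc had 10 higher (14.7%) and 5 lower (7.35%), against 4.34% and 2.92%. The Amy had 5 higher (7.35%) and 2 lower (2.94%), against 4.34% and 1.76%. The shares in the DMS, NAc and Amy were also above those of all genes, so an excess of calls is not particular to the PFC and VTA. Median absolute log2 fold changes for members and for all genes were 0.88 and 0.34 (PFC), 0.88 and 0.32 (DMS), 0.42 and 0.22 (NAc), 0.43 and 0.18 (Amy), and 0.93 and 0.41 (VTA). In bulk tissue, fewer cells of a type and less RNA per cell cannot be told apart, and this holds for each region value given here.

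Of the 68 genes, 29 had their highest mean in the PFC, 16 had it in the DMS, 15 in the VTA, and 4 each in the NAc and the Amy. The VTA held the lowest mean for 30 and the DMS for 24. The ratio of the highest to the lowest regional mean had a median of 4.68, was at least 4 in 40 genes and at least 10 in 18, and was largest for Kcnh3 (138). In all 5 regions 4 genes were called (Kcnh3, Kcng4, Kcns3 and Kcnj5), and 18 genes were called in none. The Kcnh3 calls outside the VTA are against a mean that holds its near-floor VTA level. The summed level was highest in the PFC and lowest in the VTA, with group medians of 6393 and 6165 CPM in female and male PFC vehicle libraries, 5713 and 5305 CPM for the DMS, 4520 and 4366 CPM for the NAc, 4041 and 4262 CPM for the Amy, and 3435 and 3617 CPM for the VTA.

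**Figure D1:**
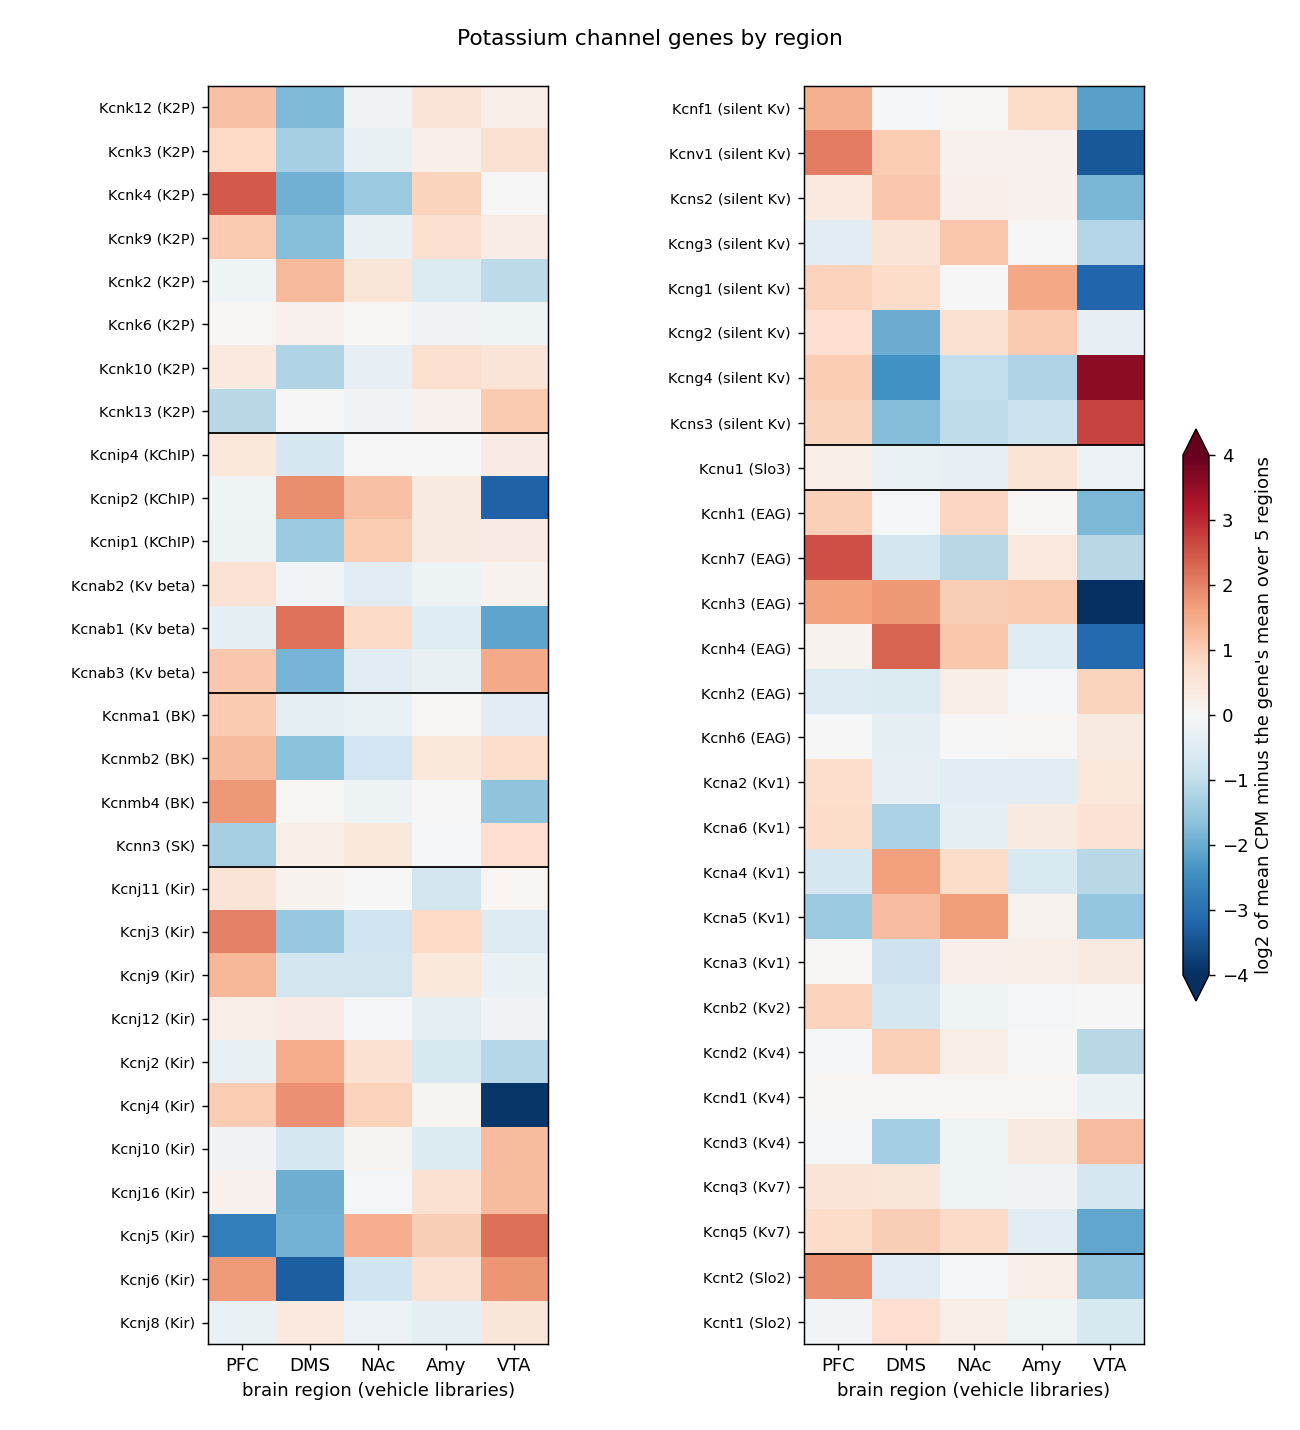
Heat map of the 57 members named in the text (rows, grouped by role) in the 5 regions (columns), coloured by the log2 mean CPM of the vehicle libraries of a region minus the gene's mean over the 5 regions, with colours ending at 4 in each direction. Most strong colours lie in the PFC, DMS and VTA columns, where 29, 31 and 33 of all 68 genes were called, against 15 for the NAc and 7 for the Amy.

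Promoter sequences are shown for 6 genes whose levels carry the regional and treatment results, so that they can be read side by side. RefSeq promoter windows (build GRCm38.p6, 250 bases before to 50 after the start) were found for 47 of the 68 genes, 67 windows in all. Kcng1, Kcnh3 and Kcnv1 had no entry. The windows are Kcnh7 (chr2:63184238-63184537, minus strand), Kcnh4 (chr11:100759729-100760028, minus), Kcna5 (chr6:126535506-126535805, minus), Kcng4 (chr8:119635631-119635930, minus), Kcnj4 (chr15:79505192-79505491, minus) and Kcna4 (chr2:107290339-107290638, plus). Capitals mark the letters GGGCGG read on either strand.
Kcnh7: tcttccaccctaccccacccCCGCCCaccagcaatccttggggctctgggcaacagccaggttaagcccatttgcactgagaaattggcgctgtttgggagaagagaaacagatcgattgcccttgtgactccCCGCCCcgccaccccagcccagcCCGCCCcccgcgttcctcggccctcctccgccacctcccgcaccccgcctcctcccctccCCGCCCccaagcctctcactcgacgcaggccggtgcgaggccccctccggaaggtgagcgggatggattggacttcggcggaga
Kcnh4: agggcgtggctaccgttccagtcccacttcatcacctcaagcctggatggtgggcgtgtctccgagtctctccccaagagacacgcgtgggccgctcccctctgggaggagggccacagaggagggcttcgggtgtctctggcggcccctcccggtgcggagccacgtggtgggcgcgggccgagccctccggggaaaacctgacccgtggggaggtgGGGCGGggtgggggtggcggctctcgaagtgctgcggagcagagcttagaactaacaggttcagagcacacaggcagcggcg
Kcna5: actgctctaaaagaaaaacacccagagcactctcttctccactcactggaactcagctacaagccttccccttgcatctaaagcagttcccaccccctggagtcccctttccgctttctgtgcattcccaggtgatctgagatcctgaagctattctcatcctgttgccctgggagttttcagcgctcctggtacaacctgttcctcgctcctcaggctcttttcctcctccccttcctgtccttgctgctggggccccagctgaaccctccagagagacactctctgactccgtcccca
Kcng4: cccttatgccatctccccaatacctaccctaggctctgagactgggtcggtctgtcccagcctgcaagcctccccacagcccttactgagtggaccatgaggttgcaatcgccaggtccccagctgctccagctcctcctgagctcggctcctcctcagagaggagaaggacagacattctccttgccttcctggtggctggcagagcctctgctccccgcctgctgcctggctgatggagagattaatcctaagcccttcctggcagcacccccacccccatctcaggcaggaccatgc
Kcnj4: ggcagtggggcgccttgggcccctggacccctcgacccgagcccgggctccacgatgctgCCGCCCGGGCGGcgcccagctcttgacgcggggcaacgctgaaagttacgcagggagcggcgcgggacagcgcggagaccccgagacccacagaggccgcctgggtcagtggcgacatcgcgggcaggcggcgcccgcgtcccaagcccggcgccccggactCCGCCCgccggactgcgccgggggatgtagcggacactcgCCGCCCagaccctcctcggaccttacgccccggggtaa
Kcna4: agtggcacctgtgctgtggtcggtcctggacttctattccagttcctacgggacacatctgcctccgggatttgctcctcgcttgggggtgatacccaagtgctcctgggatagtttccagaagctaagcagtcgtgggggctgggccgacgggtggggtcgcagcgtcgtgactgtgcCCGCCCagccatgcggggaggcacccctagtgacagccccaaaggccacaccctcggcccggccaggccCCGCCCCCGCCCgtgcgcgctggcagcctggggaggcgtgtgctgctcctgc
The 6 windows differ in base composition, from 55% GC in Kcna5 to 76% in Kcnj4. GGGCGG, the letters of a GC box, occurred 4 times in the Kcnh7 and Kcnj4 windows, 3 times in Kcna4, once in Kcnh4 and not in Kcna5 or Kcng4. On both strands it was in 34 of 67 member windows (50.7%) and in 35.7% of all 32851 windows. TATAAA was in 3 member windows (4.48%) against 13.6% of all, and TGACGTCA in 0 against 1.79%. Median GC content was 61.3% in member windows and 52.7% in all. A match describes the letters of a window only.

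Among the pore-forming voltage-gated genes, the EAG family held the gene with the widest regional range, Kcnh3. Kcnh7, an Erg-type channel that resists repeated firing, had a lowest, median and highest level of 201, 243 and 261.4 CPM in the 12 PFC libraries. Amy libraries had 36.7, 53.4 and 67.5 CPM, and every PFC library lay above every library of the other 4 regions. Its log2 fold change in the PFC was 3.25 ± 0.07 (SE; edgeR adjusted p 5.14e-44), and it was called lower in the NAc at −1.37 ± 0.09. The lowest regional mean of Kcnh7 was in the VTA, with a ratio of 13.1 between its highest and lowest regional means. Kcnh4, an Elk-type channel, followed the striatum instead. It had 43.1, 50.3 and 58.7 CPM in the DMS, then 15.2, 21.7 and 29.3 CPM for the NAc, and in the 11 VTA libraries 0.637, 0.858 and 2.09 CPM. The DMS libraries did not overlap with those of any other region (log2 fold change 3.01 ± 0.07), and the NAc value was 1.45 ± 0.08. Kcnh3, the forebrain Elk channel, was near the floor in the VTA alone, with 0.298, 0.772 and 4 CPM against medians of 165 (PFC), 185 (DMS), 109 (NAc) and 110 CPM (Amy). No VTA library overlapped with another region, and the VTA log2 fold change was −6.88 ± 0.16. In the Amy it was 1.33 ± 0.08, against a log-scale mean that holds the near-floor VTA. The Amy mean of 113 CPM lay below the PFC (165 CPM) and DMS (180 CPM) and near the NAc (108 CPM). Kcnh1 was also called lower in the VTA (−2.33 ± 0.09), and Kcnh2, the Erg channel of pacemaking cells, was called higher there (1.12 ± 0.04). In the VTA 5 of the 7 EAG genes were called lower and 1 higher.

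The Kv1 genes, low-threshold channels of axons and spines, were divided between regions. Kcna5 had 28.5, 40.1 and 46.3 CPM in the NAc and 21.6, 29.2 and 34 CPM for the DMS. It had 2.99, 4.52 and 5.21 CPM in the PFC, where all libraries were below all striatal ones. Its log2 fold change was 2.11 ± 0.07 in the NAc and −1.85 ± 0.10 in the PFC. The lowest regional mean of Kcna5 was in the VTA, not the PFC, with a ratio of 9.15 between its highest and lowest regional means. Kcna5 was called in 4 of the 5 regions. Kcna4, which carries a fast inactivating A-type current, was called higher in the DMS (2.06 ± 0.06, median 112 CPM) and lower in the VTA (−1.41 ± 0.08, median 16.6 CPM). Kcna6 (−1.57 ± 0.07) and Kcna3 (−1.02 ± 0.10) were called lower in the DMS. Kcna2, the member of the family with the highest mean, was called in no region.

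Kcnb2, a delayed rectifier of the soma, was called higher in the PFC (1.16 ± 0.06). The Kv4 genes make the dendritic A-type current. Kcnd2 and Kcnd3 ran opposite ways between the DMS (1.23 ± 0.04 and −1.66 ± 0.08) and the VTA (−1.39 ± 0.05 and 1.57 ± 0.07). In the Kv7 family, Kcnq5 was called higher in the DMS (1.28 ± 0.09) and lower in the VTA (−2.70 ± 0.13), with medians of 158 and 14.3 CPM. Kcnq3, a subunit of the M-channel, was called in no region.

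The silent subunits, which form channels only together with other Kv subunits and alter their gating, were the family with the most calls in the PFC. There 6 of the 9 were called higher, and in the VTA 6 were called lower and 2 higher. Kcng4 had 15.2, 27 and 76.2 CPM in the VTA, whereas the PFC had 4.73, 6.05 and 7.87 CPM and the DMS 0.23, 0.488 and 1.15 CPM. The VTA libraries did not overlap with any other region. Its log2 fold change was 4.44 ± 0.18 in the VTA, −2.97 ± 0.31 for the DMS, −1.38 ± 0.27 for the NAc and −1.39 ± 0.26 for the Amy. Kcns3 gave a similar picture, with 14.6, 25.6 and 33.5 CPM in the VTA and at most 9.26 CPM in any library of another region (log2 fold change 3.41 ± 0.10 in the VTA and −1.06 ± 0.13 in the Amy). Kcnv1 had 109, 126 and 141 CPM in the PFC, whereas the VTA had 1.94, 2.89 and 4.67 CPM, each apart from all other regions. Its log2 fold change was 2.57 ± 0.06 in the PFC and −4.36 ± 0.11 in the VTA. Kcng1 was the gene with the largest difference in the Amy, with 41.3, 75.9 and 87.4 CPM there, whereas the PFC had 36.7, 43.5 and 57.3 CPM, so that the ranges overlapped. The log2 fold change was 1.88 ± 0.09 in the Amy. Kcng2 was also called higher in the Amy (1.31 ± 0.17), where its range of 6.59 to 15.9 CPM overlapped with the 4.21 to 10.7 CPM of the NAc. Kcnf1, the silent subunit with the highest mean, was called higher in the PFC (1.80 ± 0.08) and lower in the VTA (−2.80 ± 0.11).

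Of the auxiliary subunits, Kcnab1, a Kv1 beta subunit that confers inactivation, had 380, 584 and 651 CPM in the DMS, whereas the NAc had 164, 215 and 265.2 CPM and the VTA 11.6, 27.6 and 50 CPM. The DMS lay apart from every other region (2.72 ± 0.08). Kcnip2, a calcium sensor that binds Kv4, had 326.4, 377.1 and 417 CPM in the DMS, whereas the NAc had 165, 226 and 314.3 CPM and the VTA 6.65, 10.1 and 18 CPM. These 3 ranges did not overlap. The log2 fold change was 2.37 ± 0.06 in the DMS, and the NAc level was 2.83-fold that of the other regions. Kcnip1 was called lower in the DMS (−1.84 ± 0.09) and higher in the NAc (1.29 ± 0.07), a difference between the striatal regions. Kcnab3 was called higher in the VTA (1.89 ± 0.10) and PFC (1.37 ± 0.10) and lower in the DMS (−2.26 ± 0.13). Kcnab2 was called in no region.

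Among the calcium- and sodium-activated channels, all 3 BK genes, 1 of 2 sodium-activated genes and 0 of 3 SK genes were called higher in the PFC by edgeR. The BK genes were the pore gene Kcnma1 (2.46-fold, median 381 CPM), the neuronal beta subunit Kcnmb4 (2.15 ± 0.05, median 93.5 CPM) and Kcnmb2 (1.55 ± 0.11, median 3.72 CPM). The sodium-activated channel Kcnt2 was called higher in the PFC (2.31 ± 0.05) and lower in the VTA (−1.94 ± 0.08), whereas its relative Kcnt1 was called in no region. Kcnn3, an SK channel that sets pacemaking in dopaminergic neurons, had 15.5, 18.8 and 22.4 CPM in the PFC, whereas the VTA had 48, 75.3 and 98.2 CPM. All PFC libraries lay below those of the other regions, with a log2 fold change of −1.65 ± 0.07.

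Of the inward rectifiers, Kcnj4 and Kcnj2, strong rectifiers that set the resting potential of medium spiny neurons, were called higher in the DMS. Kcnj4 had 186, 261.04 and 277.9 CPM in the DMS, whereas the PFC had 127, 145 and 163 CPM and the VTA 0.32, 3.97 and 14.6 CPM. Both ends lay apart from the rest, with log2 fold changes of 2.40 ± 0.13 in the DMS and −5.31 ± 0.23 in the VTA. Kcnj2 had 1.87 ± 0.08 in the DMS and −1.45 ± 0.11 in the VTA.

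The G-protein-gated rectifiers, which open on signals from inhibitory receptors, differed among themselves. Kcnj6 had 27.8, 31.6 and 35.1 CPM in the PFC, whereas the VTA had 23.6, 31 and 46.2 CPM and the DMS 0.314, 0.477 and 4.37 CPM. The PFC and VTA ranges overlapped, and the highest DMS value came from Female_DMS_Veh library FTL_285. Log2 fold changes were 2.21 ± 0.13 in the VTA and −4.05 ± 0.21 in the DMS. Kcnj3 was called higher in the PFC (2.53 ± 0.08, with 173, 184 and 199 CPM, above all other libraries) and Kcnj9 likewise (1.67 ± 0.06). Kcnj5, close to the expression limit, had 3.15, 5.45 and 10.1 CPM in the VTA, whereas the NAc had 1.16, 3.59 and 5.73 CPM and the PFC 0, 0.2 and 0.398 CPM. The VTA and NAc ranges overlapped and the PFC lay below both. Its log2 fold changes were 2.74 ± 0.17 for the VTA, 1.79 ± 0.17 for the NAc, 1.25 ± 0.17 for the Amy and −3.45 ± 0.27 for the PFC. In contrasts within the same count table, the VTA, NAc and Amy were each set against the other 2, and the PFC against the DMS. There the values were 0.97 ± 0.18 (VTA), −0.16 ± 0.18 (NAc), −0.81 ± 0.18 (Amy) and −0.91 ± 0.37 (PFC). The NAc and Amy directions turned, and none reached a log2 fold change of 1 in size. The DMS, called lower against the other regions, lay above the PFC here, so its direction turned too. Kcnj10, the potassium uptake channel of astrocytes, was called higher in the VTA (1.58 ± 0.06, median 371.6 CPM), and so was its partner Kcnj16 (1.58 ± 0.08). Kcnj16 had 2.9, 4.67 and 9.42 CPM in the DMS, below all libraries of other regions (−2.42 ± 0.10). Astrocyte markers were called higher in the VTA for 2 of 5 genes, and their part in the level of Kcnj10 was not tested.

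The leak channels were the family called lower in the DMS most often, 5 of 9, with 1 higher. Kcnk4, a mechanosensitive channel, had 12.9, 14.7 and 18 CPM in the PFC, whereas the Amy had 3.53, 5.07 and 6.54 CPM and the DMS 0.271, 0.597 and 2.02 CPM. The PFC lay above all other regions (3.03 ± 0.10), and the NAc value was −1.83 ± 0.15. Kcnk9 (−2.12 ± 0.10), Kcnk12 (−2.16 ± 0.10), Kcnk3 (−1.62 ± 0.10) and Kcnk10 (−1.48 ± 0.09) were also called lower in the DMS. Kcnk2, mechanosensitive like Kcnk4, was the exception, higher in the DMS (1.63 ± 0.04) and lower in the VTA (−1.33 ± 0.06). Kcnk13, known from microglia, was called higher in the VTA (1.34 ± 0.07) and lower in the PFC (−1.41 ± 0.08).

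**Figure D2:**
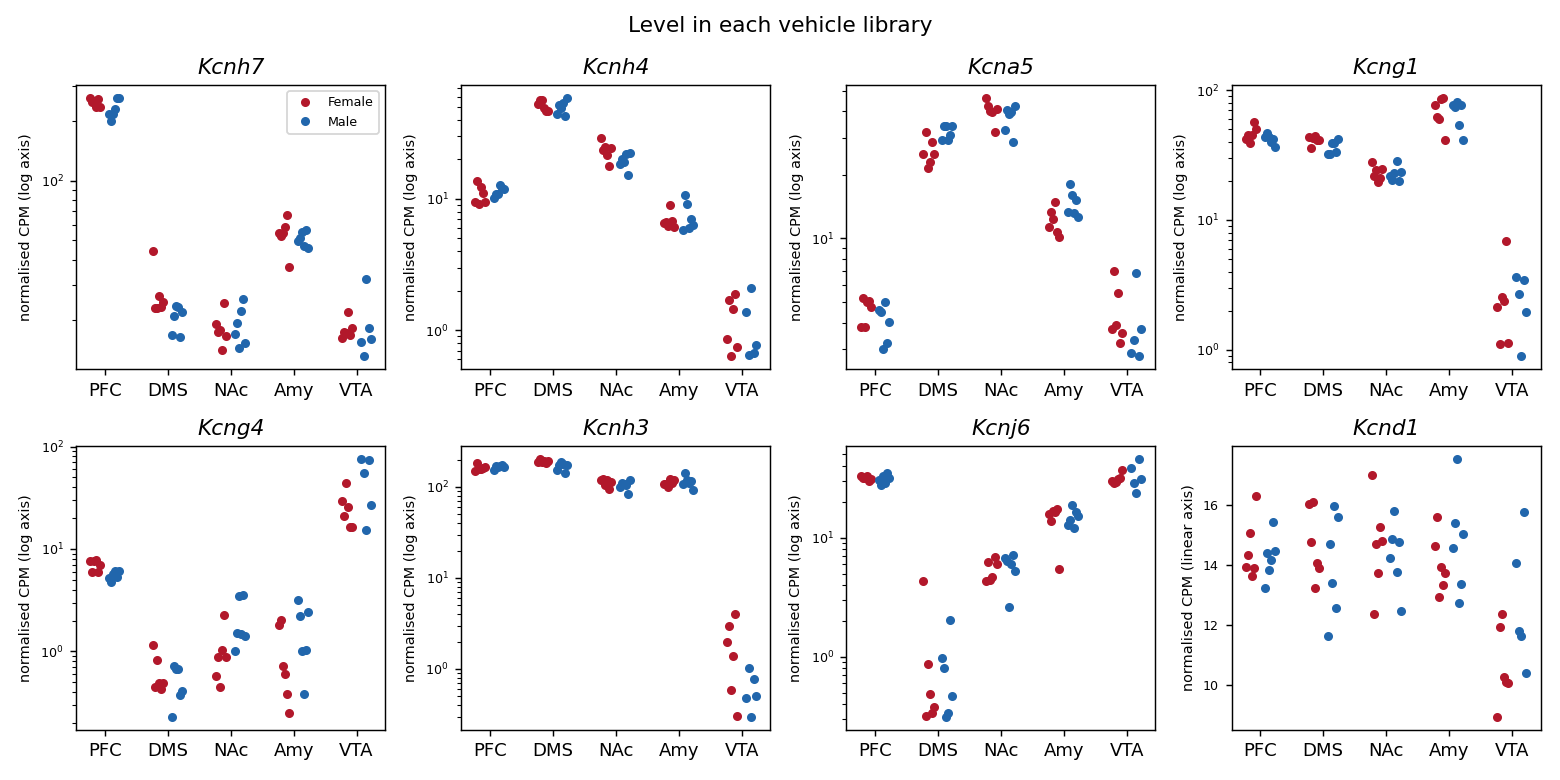
Normalised CPM of Kcnh7, Kcnh4, Kcna5, Kcng1, Kcng4, Kcnh3, Kcnj6 and Kcnd1 in each vehicle library (points, red female and blue male) by region. Medians of Kcnh7 run from 17 CPM in the VTA to 243 CPM in the PFC, whereas those of Kcnd1 stay between 11.6 and 14.7 CPM.

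The members with the smallest ratio between regional means were Kcnd1 (1.25), Kcnk6 (1.28), Kcnj12 (1.65), Kcnh6 (1.71) and Kcnj8 (1.80). Kcnd1 had medians of 14.2, 14.4, 14.7, 14.2 and 11.6 CPM in the PFC, DMS, NAc, Amy and VTA, with overlapping ranges, although it belongs to the same family as Kcnd2 and Kcnd3.

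Genes that work with these channels were followed as a separate list of 15, of which 13 were tested. In the PFC 1 was called higher (Dpp10, a Kv4 partner, 2.06-fold), in the DMS 2 were called lower (Dpp10 at −1.17 ± 0.07 and Lrrc55, a BK gamma subunit, at −1.55 ± 0.09), and in the VTA 2 were called higher (Cntn2 at 1.29 ± 0.06 and Lrrc55 at 1.14 ± 0.08). None was called in the NAc or Amy by edgeR. Hcn2, Hcn3 and Hcn4, related channels that carry the opposing depolarising current, were called higher in the VTA (1.32 ± 0.06, 1.64 ± 0.07 and 1.74 ± 0.08).

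In contrasts kept within one count table the comparison regions change too: the PFC and DMS are set against each other, and the NAc, Amy and VTA each against the other 2. So a move there cannot be given to the table. Kcnj4 in the DMS (0.81 ± 0.18), Kcnh7 in the NAc (−0.70 ± 0.10) and Kcng2 in the Amy (0.98 ± 0.20) had a log2 fold change under 1 in size in these contrasts. Kcns3 in the Amy had −0.90 in all 119 libraries and −0.81 in THC libraries.

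The second question was whether THC in adolescence left a difference in these genes. Within each region and sex, THC and vehicle libraries were fitted alone in edgeR, and a gene was called at an adjusted p under 0.05 where the log2 fold change was also 0.4 or more in size. Only Female_Amy had called members, 2 of 68 (Kcna4 and Kcnv1, both higher), against 1.57% of all genes. The other 9 comparisons had 0, against 0% of all genes in Female_PFC, Male_PFC, Male_DMS, Female_NAc, Male_NAc, Male_Amy, Female_VTA and Male_VTA and 0.0127% in Female_DMS. DESeq2 called 4 members in Female_Amy (Kcna4, Kcnv1, Kcng1 and Kcnq5), against 3.39% of all genes, 1 in Female_VTA (0.0449%) and 0 in the other 8. Its shares of all genes there were 0.19% in Female_DMS, 0.102% in Male_NAc, 0.00327% in Male_VTA and 0% in the remaining 5.

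At an unadjusted p under 0.05 there were members in 9 of the 10 comparisons. Male_NAc had 31 of 68 members there (45.6%, against 16.7% of all genes) and Female_Amy 22 (32.4%, against 21.9%). Female_VTA had 11 (16.2%, against 9.02%) and Female_DMS 10 of 64 tested (15.6%, against 8.9%). The remaining comparisons had fewer members there: Female_PFC 4 of 67 (5.84% of all genes), Male_PFC 6 of 67 (8.96%, against 4.07%), Male_DMS 0 of 66 (1.93% of all genes), Female_NAc 4 of 68 (4.61% of all), Male_Amy 1 of 68 (1.84% of all) and Male_VTA 6 of 68 (8.82%, against 5.92%).

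**Figure D3:**
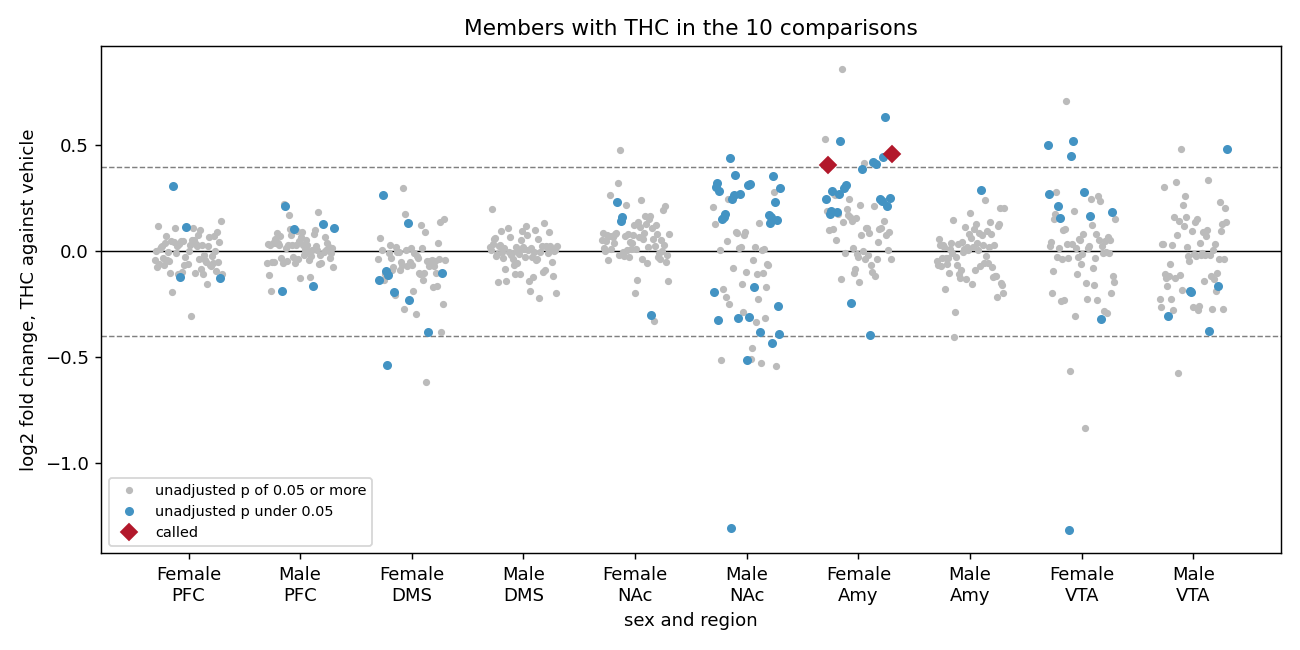
Log2 fold change of THC against vehicle (vertical axis) for each member in the 10 comparisons, with grey points at p of 0.05 or more, blue points under 0.05 and red diamonds for called genes, and dashed lines at 0.4 in each direction. The 2 red diamonds are in Female_Amy, and the most blue points, 31, are in Male_NAc.

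In Female_Amy, 2 voltage-gated genes were called higher with THC, a pore-forming gene and a silent subunit. Kcna4, the A-type channel, had 18.7, 21.5 and 24.8 CPM with vehicle and 24.7, 28.3 and 31.1 CPM with THC. The groups overlapped, with 5 of 6 THC libraries above the highest vehicle library and 6 of 6 above the vehicle median. Its log2 fold change was 0.41 ± 0.08 (edgeR adjusted p 0.0201). Kcnv1, the silent subunit, had 26.2, 36.1 and 43.3 CPM with vehicle and 42.9, 47.7 and 53.2 CPM with THC. Here too the groups overlapped and 6 of 6 THC libraries were above the vehicle median (0.46 ± 0.11, adjusted p 0.0455).

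A further 3 members had an adjusted p under 0.05 with a smaller change, and in each 6 of 6 THC libraries were above the vehicle median. The Kv1 beta subunit Kcnab2 went from a median of 287.3 to 345.2 CPM (0.29 ± 0.06, adjusted p 0.0355). The Elk channel Kcnh3 went from 109 to 134 CPM (0.31 ± 0.07, adjusted p 0.0386). The strong rectifier Kcnj4 went from 71.3 to 96.2 CPM (0.39 ± 0.10, adjusted p 0.0459). Groups did not overlap for 2 of 68 members, against 4.14% of all genes, so this share is not above that of all genes. Both are M-channel genes that missed the adjusted threshold. Kcnq5 had 27.8, 53.1 and 65.2 CPM with vehicle and 66.3, 77.6 and 94.4 CPM with THC (0.63 ± 0.17, adjusted p 0.0605). Kcnq3 had 64.9, 144 and 155 CPM and then 156, 179 and 211 CPM (0.45 ± 0.16, adjusted p 0.139). The lowest vehicle value of both came from library FTL_338.

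Over the 68 members, 52 had a positive log2 fold change in Female_Amy, with a median of 0.15 against −0.01 over all genes. Such a lean was also present where no member was called, with 51 of 68 positive in Female_NAc and 48 of 64 negative in Female_DMS. An unadjusted p under 0.05 with higher levels was found for 20 members, against 10.8% of all genes. The members on the other side were Kcnk13 (−0.39 ± 0.11, adjusted p 0.0736, below the vehicle median in 6 of 6 libraries) and Kcnip1 (−0.24 ± 0.08, adjusted p 0.108, also 6 of 6).

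**Figure D4:**
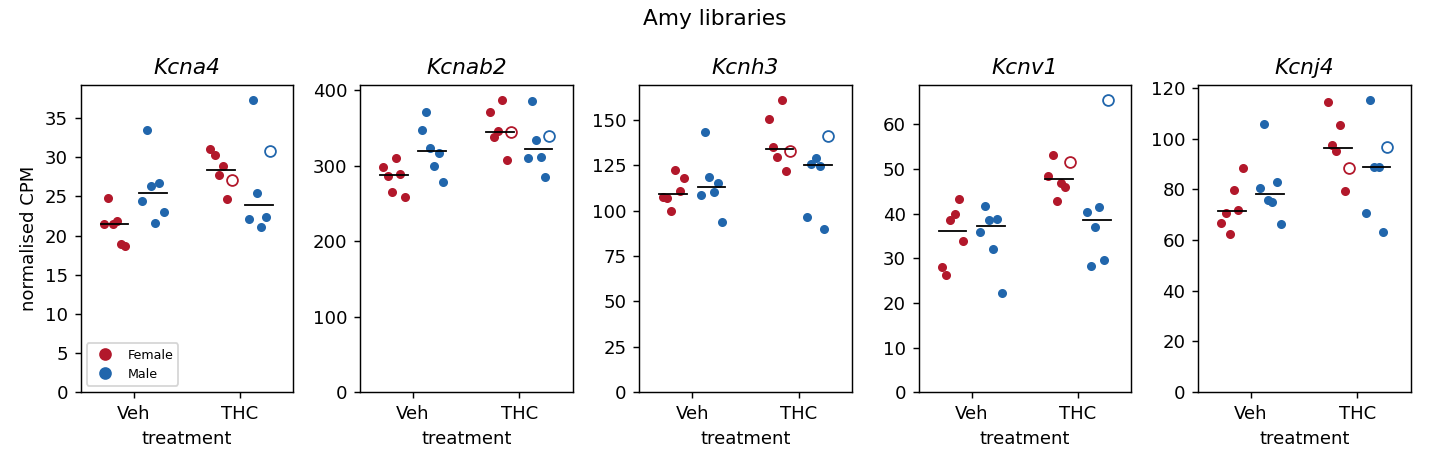
Normalised CPM of Kcna4, Kcnab2, Kcnh3, Kcnv1 and Kcnj4, the members with an adjusted p under 0.05 in Female_Amy, in each Amy library by sex and treatment, with black bars for medians and open circles for the libraries whose sex genes go against the label. Female THC medians lie above female vehicle medians in all 5 panels, for example 28.3 against 21.5 CPM for Kcna4.

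The Female_Amy calls depended on single libraries, and in 12 fits that each left one out Kcna4 lost its call in 6 and Kcnv1 in 11. Without 1 library at a time, 0 to 3 members were called: 0 without vehicle library FTL_335 or THC libraries FTL_339, FTL_340 or FTL_342, and 1 without vehicle libraries FTL_333 or FTL_336 or THC libraries FTL_341 or FTL_344. Without vehicle library FTL_338 the 3 called members were Kcng3 (0.59 ± 0.15), Kcnj4 (0.46 ± 0.09) and Kcnq5 (0.51 ± 0.12), so neither Kcna4 (0.38, adjusted p 0.00999) nor Kcnv1 (0.46, adjusted p 0.0591) was among them. Without the THC library labelled female that carries male sex genes, library FTL_344, Kcna4 had 0.42 (adjusted p 0.0401) and Kcnv1 0.44 (adjusted p 0.0941). With all 4 Amy groups in a single fit, 0 members were called, with adjusted p of 0.0788 for Kcna4 and 0.133 for Kcnv1.

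Markers of cell types moved in the same comparison. Of 5 cortical projection neuron markers 3 were called higher and all 5 had an unadjusted p under 0.05. Their summed level, mostly Slc17a7, went from 480, 549 and 725 CPM with vehicle to 779, 1025 and 1110 CPM with THC, with no overlap. All 6 medium spiny neuron markers had p under 0.05 with higher levels (medians 301.1 and 528 CPM, mostly Ppp1r1b). Of 5 markers of hypothalamus and medial amygdala 4 had p under 0.05 with lower levels, 1 of them called (medians 98.7 and 68.7 CPM, mostly Tac1). Of 4 dopaminergic markers tested 2 had p under 0.05 with lower levels, 1 called (medians 42.1 and 34.8 CPM, mostly Ddc). GABAergic interneuron sums ran from 819 to 975 CPM with vehicle and from 810 to 869 CPM with THC. Choroid plexus and ependymal sums, mostly Ttr, spread from 12.4 to 1124 CPM with vehicle and from 12.2 to 3441 CPM with THC. Median depth was 26934000 counts with vehicle and 44473000 with THC. The part of these differences in the members' values was not tested.

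In Male_NAc no member was called, and the members with the smallest p values had higher values with THC. Kcnh4 had 15.2, 19.7 and 22.2 CPM with vehicle and 21.4, 24.9 and 29.1 CPM with THC. The groups overlapped, 5 of 6 THC libraries were above the highest vehicle library, and the log2 fold change was 0.36 ± 0.09 (edgeR adjusted p 0.21). Kcnq5 had 103, 128 and 143 CPM and then 133, 163 and 192 CPM, with 4 of 6 above the highest vehicle library (0.36 ± 0.10, adjusted p 0.21). An adjusted p of 0.21 was also the smallest over all genes in this comparison.

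Of the 31 members with an unadjusted p under 0.05, 20 had higher and 11 lower values. Among the higher were Kcna5 (0.32 ± 0.10), Kcnj4 (0.32 ± 0.10), Kcnj2 (0.32 ± 0.14), Kcna4 (0.30 ± 0.13), Kcnab1 (0.28 ± 0.11), Kcnip2 (0.27 ± 0.11), Kcnh3 (0.27 ± 0.07) and Kcns2 (0.24 ± 0.07). Among the lower were Kcnj16 (−0.51 ± 0.20), Kcnk3 (−0.38 ± 0.15), Kcna6 (−0.33 ± 0.11), Kcnj3 (−0.31 ± 0.13) and Kcnh7 (−0.31 ± 0.13). The largest difference was in Kcng4, a gene of low level here, with 1.01, 1.49 and 3.56 CPM and then 0.428, 0.73 and 1.43 CPM (−1.30 ± 0.37). Since the Male_NAc vehicle libraries are part of the regional contrast too, the regional and THC values stand side by side as descriptions.

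**Figure D5:**
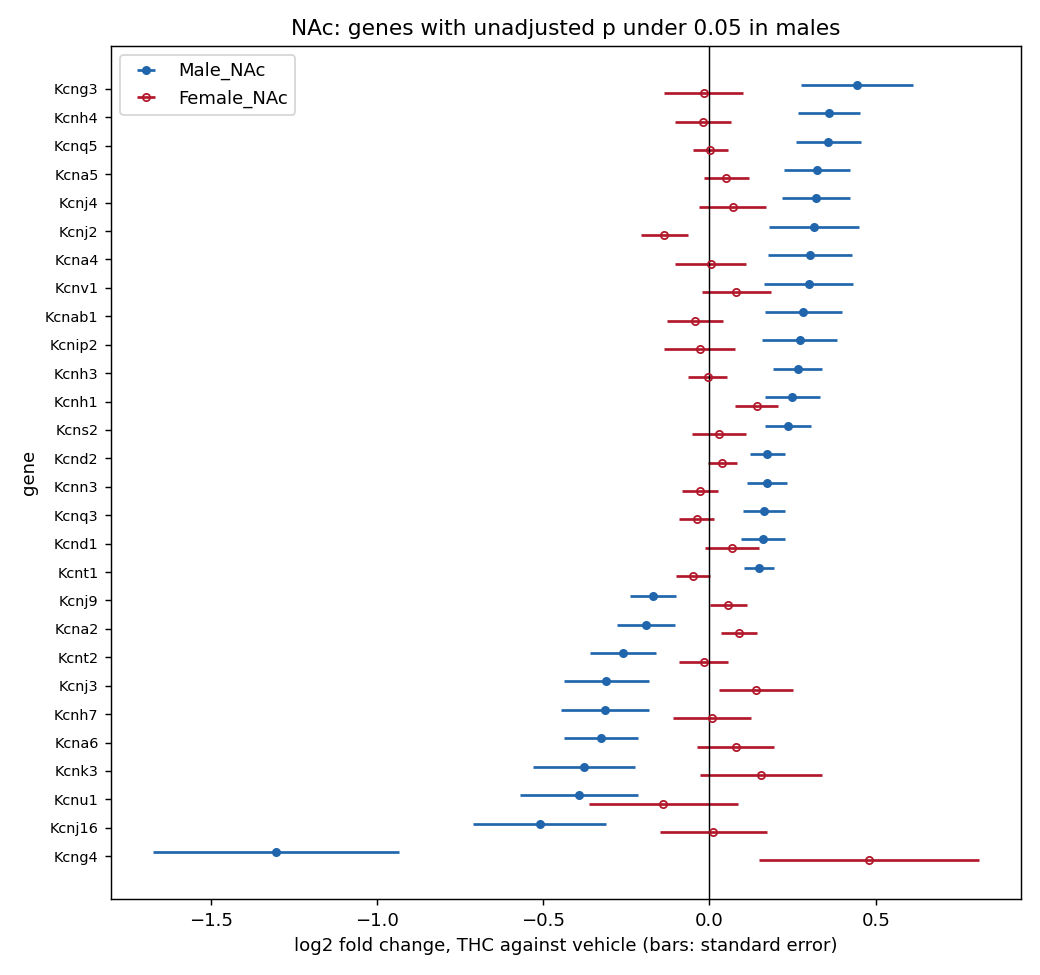
Log2 fold change of THC against vehicle with its SE (bars) for 28 of the 31 members with an unadjusted p under 0.05 in Male_NAc, those named in the text, with Female_NAc values of the same genes as open red symbols. Male values run from −1.30 for Kcng4 to 0.44 for Kcng3, and female values mostly lie near 0, such as −0.02 for Kcnh4.

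Medium spiny neuron markers had higher values in the same libraries. All 6 had an unadjusted p under 0.05, and their sum, mostly Ppp1r1b, had a median of 2389 CPM with vehicle and 3005 CPM with THC. Of 3 cortical markers tested 2 had p under 0.05 with lower values (medians 9.86 and 5.98 CPM, mostly Slc17a7). Sums of thalamic and midbrain glutamatergic markers ran from 13.8 to 33.8 CPM with vehicle and from 5.79 to 16.2 CPM with THC. Median depth was 17992000 and 22101000 counts. Their part in the members' values was not tested. Leaving out 1 library gave 19 to 38 members at p under 0.05, with 20 without vehicle library FTL_325 or THC libraries FTL_329 or FTL_331 and 19 without THC library FTL_330. DESeq2 gave 34.

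In Female_VTA, Kcnh7 had 16.2, 17.2 and 21.8 CPM with vehicle and 17.3, 25.5 and 30.7 CPM with THC. The groups overlapped and 5 of 6 THC libraries were above the highest vehicle library. The log2 fold change was 0.52 ± 0.12 (edgeR adjusted p 0.512), and DESeq2 called it (0.52 ± 0.13, adjusted p 0.0469). Kcnt1 had 0.18 ± 0.06 (adjusted p 0.512, 6 of 6 above the vehicle median). Kcnh3, near 1 CPM in this region, had −1.32 ± 0.52. All 5 microglial markers had an unadjusted p under 0.05 with lower values (medians 235 and 171 CPM, mostly Csf1r), as did 3 of 5 astrocyte markers (1834 and 1095 CPM, mostly Gfap) and 1 of 6 medium spiny neuron markers (192 and 166 CPM). Of 2 markers of thalamic and midbrain glutamatergic neurons 1 had p under 0.05 with higher values (199 and 289.4 CPM, mostly Slc17a6), and hypothalamic markers, 0 of 5 under 0.05, had medians of 47.7 and 62.3 CPM. Cortical projection neuron markers, 0 of 2 tested under 0.05, had 8.15, 33.7 and 78.5 CPM with vehicle and 3.36, 6.33 and 73.4 CPM with THC. Dopaminergic markers, 0 of 5, had 2612, 3060 and 3702 CPM and then 1106, 2571 and 3723 CPM. The part of these markers in the members' values was not tested.

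In Male_VTA, the astrocyte channel Kcnj10 had 329.1, 398 and 420.3 CPM with vehicle and 306.5, 347.4 and 361.3 CPM with THC (−0.19 ± 0.07, adjusted p 0.819, 6 of 6 below the vehicle median). Kcnv1 had 0.49 ± 0.19 at a level of 2 to 3 CPM. In the same libraries 0 of 5 astrocyte markers had p under 0.05, with sums of 849, 1656 and 1787 CPM with vehicle and 880, 1313 and 2308 CPM with THC. Cortical projection neuron sums were 2.80, 5.15 and 44.7 CPM and then 3.19, 7.54 and 133.8 CPM. Their part in these members' values was not tested. In Male_Amy, Kcnk12 had medians of 8.72 and 10.5 CPM (0.29 ± 0.10, adjusted p 0.9999) and Kcnt2 16.9 and 14.7 CPM (−0.16 ± 0.10). The values of Kcna4 and Kcnv1, called in females, were 0.03 ± 0.14 and 0.21 ± 0.20 in males.

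In Female_DMS, Kcnab3 had 4.7, 5.92 and 9.93 CPM with vehicle and 3.19, 4.64 and 5.1 CPM with THC (−0.53 ± 0.17, adjusted p 0.321, 6 of 6 below the vehicle median). The highest vehicle value was that of library FTL_285. Kcna5 had 21.6, 25.1 and 32.1 CPM and then 28.9, 30.5 and 35.8 CPM (0.27 ± 0.09, adjusted p 0.338, 6 of 6 above). In Male_DMS no member had p under 0.05, and the smallest p values were those of Kcnip4 (−0.11 ± 0.05) and Kcna3 (0.20 ± 0.11).

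In Female_PFC, the KATP pore gene Kcnj11 had medians of 47 and 51 CPM (0.12 ± 0.04, 6 of 6 above the vehicle median) and Kcnh7 251 and 232 CPM (−0.12 ± 0.05, 6 of 6 below). In Male_PFC, the acid-sensitive leak channel Kcnk3 had 33.6 and 30.9 CPM (−0.16 ± 0.05) and Kcng1 42.7 and 36.7 CPM (−0.19 ± 0.06), each 6 of 6 below. In Female_NAc, Kcnh2 had 62.6 and 69.6 CPM (0.16 ± 0.06, 6 of 6 above) and Kcnk6 3.79 and 3.13 CPM (−0.30 ± 0.11, 5 of 6 below). All these groups overlapped, and the smallest adjusted p of a member was 0.786 in Female_PFC, 0.9996 in Male_PFC and 0.991 in Female_NAc. No partner gene was called with THC in any of the 10 comparisons by edgeR. At an unadjusted p under 0.05 the partner list reached at most 2 of 13.

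The third question was whether THC acted differently by sex. In the term for sex by treatment, edgeR called 0 members in every region, against 0% of all genes in the PFC, DMS, NAc and VTA and 0.0059% in the Amy. Members at an unadjusted p under 0.05 numbered 6 of 67 in the PFC (5.87% of all genes), 3 of 67 in the DMS (5.9%), 21 of 68 in the NAc (30.9%, against 11% of all genes), 14 of 68 in the Amy (20.6%, against 15.8%) and 6 of 68 in the VTA (6.16% of all genes). DESeq2 called 0 members, against 0% of all genes in the PFC, NAc and VTA, 0.00967% in the DMS and 0.132% in the Amy. In the NAc the female minus male effect was −0.36 ± 0.11 for Kcnq5 and 1.80 ± 0.53 for Kcng4 (both adjusted p 0.384). In the Amy it was 0.85 ± 0.27 for Kcnq5 (adjusted p 0.253) and 0.38 ± 0.17 for Kcna4 (adjusted p 0.292). No member was called for a sex difference in the THC effect.

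Sex itself gave 0 called members in each region with edgeR, against 0.237% (PFC), 2.64% (DMS), 0.25% (NAc), 0.0118% (Amy) and 0.113% (VTA) of all genes. At an unadjusted p under 0.05 there were 19 members in the PFC (28.4%, against 16.3% of all genes), 22 in the DMS (32.8%, against 27.8%), 4 in the NAc (5.88%, against 16.4%), 8 in the Amy (11.8%, against 6.06%) and 3 in the VTA (4.41%, against 7.19%). Of these, 16 of 19 in the PFC and 20 of 22 in the DMS had higher values in females, against 53% and 49.8% of all genes at this p. Small differences passed the adjusted threshold without the fold limit. In the PFC this was Kcng4, with means of 7.83 CPM in females and 5.97 CPM in males (0.39 ± 0.08, adjusted p 0.0138). In the DMS there were 12, led by Kcnf1 with 78.6 and 69.3 CPM (0.17 ± 0.04, adjusted p 0.00694), and Kcna5 was the one with lower values in females (28.5 and 32.5 CPM, −0.21 ± 0.06, adjusted p 0.0189). DESeq2 called 1 member, Kcnj5 in the DMS (−1.09 ± 0.31, adjusted p 0.00728), at under 1 CPM, and 0 in the other regions. Its shares of all genes were 3.26% (DMS), 0.369% (PFC), 0.415% (NAc), 0.0778% (Amy) and 0.174% (VTA). In the Amy, sex and sex by treatment also gave 0 called members without the 2 libraries whose sex genes go against the label.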

How the data were processed

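Per the labels, the authors trimmed reads with cutadapt 2.9, aligned them to mm10 with STAR 2.7.3a and quantified genes with RSEM 1.3.1. The deposited tables hold expected counts per gene symbol, not normalised. They were rounded here and tested in R 4.3.3 with edgeR 4.0.16 (TMM factors, its expression filter, robust quasi-likelihood fits, Benjamini-Hochberg adjustment over all genes tested). Printed levels are CPM with TMM factors over all 119 libraries; low, median and high values are per group. DESeq2 1.42.0, DESeq2 size factors, no filter, no fold limit, other sets of libraries and leaving out single libraries were the alternatives. Lengths came from GENCODE M21. Genes named by rule are the largest called differences of each region, the called or smallest-p members of each THC and sex test, the steadiest members, those beside the expression limit and the leading member of each family; some of these are not named in the text, and others were named after their values were seen. The members and gene lists were chosen with earlier results of these data known. The steps were tested on simulated data. No library was left out.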

Additional observations from a re-analysis of the deposited data

Results flagged for a closer look

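In 8 of 80 groups checked, 1 library lay far from the others, and chance flags about 1 in 20 groups. The summed level of the members in Female_Amy_Veh was 3172 CPM in FTL_338, with the next at 3893 CPM. The total expected count of Female_VTA_THC was 38484000 in FTL_365, with the next at 18166000. Kcnj11 in Female_PFC_THC was 54.9 CPM in FTL_269, with the next at 51.5 CPM. Kcnab3 in Female_DMS_Veh was 9.93 CPM in FTL_285, with the next at 6.40 CPM. Kcna5 in Female_DMS_THC was 35.8 CPM in FTL_291, with the next at 31.3 CPM. Kcnk6 in Female_NAc_Veh was 4.66 CPM in FTL_311, with the next at 3.93 CPM. Kcnh7 in Female_VTA_Veh was 21.8 CPM in FTL_360, with the next at 18.1 CPM. Kcnj10 in Male_VTA_THC was low, at 306.5 CPM in FTL_374, with the next at 342.99 CPM.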

How the results depend on the processing

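Apart from leaving out single libraries, 138 counts kept their direction and stayed within 1.5 times their value. Of the single genes' values 2 turned, 9 lost the call, 1 gained it and the others kept both direction and side of the threshold. Without the fold limit, members higher and lower numbered 46 and 17 in the PFC, 27 and 33 in the DMS, 26 and 31 in the NAc, 30 and 24 in the Amy and 28 and 36 in the VTA, with 5 called with THC in Female_Amy and 1 and 12 for sex in the PFC and DMS, since fewer conditions apply. Within one count table, which also changes the regions compared against, 10 were lower in the PFC, 28 lower in the DMS, 8 lower in the NAc and 11 higher in the Amy. There Kcnj5 turned to −0.16 in the NAc and −0.81 in the Amy. It also turned in the DMS, which was not among the single values followed. In THC libraries 8 were lower in the NAc, 8 higher in the Amy and 1 lower in the Amy, and in all 119 libraries 8 lower in the NAc and 1 lower in the Amy. DESeq2 called 4 members with THC in Female_Amy, 1 in Female_VTA and 1 for sex in the DMS, where no filter on low counts also gave 1. With all 4 Amy groups in 1 fit Female_Amy had 0. The cause was not tested. Leaving out single libraries gave 0 to 3 called in Female_Amy, where Kcna4 ranged from 0.37 to 0.45 and Kcnv1 from 0.38 to 0.52, and 19 to 38 members at unadjusted p under 0.05 in Male_NAc, a range chosen after seeing the data, as was DESeq2's count of 34. The power to find small differences was not tested.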
